A study of Mus musculus with 50 samples.

Results

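The 9 genes described here are myogenic factors and genes of regenerating muscle fibers: Pax7, Myf5, Myod1, Myog, Myf6, Mymk, Myh3, Myh8 and Chrng. They were chosen by name, and each was found as 1 row among the 37469 gene identifiers of the count table. Expression was measured by bulk RNA sequencing of 48 whole mouse p53/MCA sarcomas and of 2 further libraries of a line called 402230. Primary tumors (n = 32) arose in Trp53 fl/fl mice on the 129/SvJae background, in the gastrocnemius, after a Cre-expressing adenovirus was injected there together with 300 µg of the carcinogen 3-methylcholanthrene (MCA). Transplant tumors (n = 16) grew in the gastrocnemius of syngeneic 129/SvJae mice from 50000 injected cells of line 402230, which came from 1 untreated primary tumor, so all transplants descend from a single line. Primary tumors were induced at 6 to 10 weeks of age. At a tumor volume of about 150 mm3 the mice received 200 µg of an anti-PD-1 antibody or of an isotype control antibody, then 0 or 20 Gy to the hind limb, and tumors were taken 3 days later. Each of the 4 treatments (0 Gy isotype, called untreated here, 0 Gy anti-PD-1, 20 Gy isotype and 20 Gy anti-PD-1) had 8 primary and 4 transplant libraries.

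Adult skeletal muscle is repaired by satellite cells, stem cells that lie beside the fibers and are marked by the transcription factor Pax7. On activation they become myoblasts under the basic helix-loop-helix factors Myf5 and Myod1, stop dividing and differentiate under Myog, and fuse into fibers through membrane proteins that include Mymk (myomaker). Newly formed fibers carry the embryonic myosin heavy chain Myh3, the perinatal myosin heavy chain Myh8 and the fetal acetylcholine receptor subunit Chrng, which adult fibers largely replace with other forms. Myf6 (Mrf4) differs from the other factors in that mature fibers also express it.

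On mm10 (GRCm38), Myf5 (chr10:107482908-107486134) and Myf6 (chr10:107492853-107494737) are neighbors on the minus strand, and Myh3 (chr11:67078300-67102291) and Myh8 (chr11:67277124-67308634) lie in the same myosin heavy chain region on the plus strand. Chrng (chr1:87204657-87212694) and Myog (chr1:134289989-134292548) are on the plus strand of chromosome 1, Myod1 (chr7:46376474-46379099) is on the plus strand, and Mymk (chr2:27061636-27072179) and Pax7 (chr4:139737062-139833528) are on the minus strand. All 9 are protein-coding, and no exon of another annotated gene overlapped theirs. Reads of Myh3 and Myh8 can be shared with near-identical myosin genes, so their counts are less certain than the others.

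The myogenic factors bind the E-box CANNTG, often as CAGCTG, which is one form of CANNTG, and both motifs read the same on either strand. Of the 9 genes, 6 were matched to a RefSeq promoter (GRCm38.p6), of which the 250 bases before the RefSeq start were searched. That start can lie inside the gene span given above. The windows of Chrng and Pax7 lay within their spans, and the window of Myog ran past the start of its span. The windows of 4 of the 6 held CANNTG, against 66.2% of all 32817 windows of that length. The 4 are printed because they hold the motif, a share near that of all windows from which nothing is read about these genes. CANNTG is in capitals, and the windows are chr1:134289754-134290003 for Myog, chr1:87205561-87205810 for Chrng, chr11:67078050-67078299 for Myh3 and chr11:67276874-67277123 for Myh8, all on the plus strand and written 5′ to 3′.
Myog promoter: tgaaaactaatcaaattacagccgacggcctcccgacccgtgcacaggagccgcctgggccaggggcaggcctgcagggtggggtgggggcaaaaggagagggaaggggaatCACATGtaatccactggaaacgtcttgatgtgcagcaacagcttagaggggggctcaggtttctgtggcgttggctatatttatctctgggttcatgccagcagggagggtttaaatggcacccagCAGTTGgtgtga
Chrng promoter: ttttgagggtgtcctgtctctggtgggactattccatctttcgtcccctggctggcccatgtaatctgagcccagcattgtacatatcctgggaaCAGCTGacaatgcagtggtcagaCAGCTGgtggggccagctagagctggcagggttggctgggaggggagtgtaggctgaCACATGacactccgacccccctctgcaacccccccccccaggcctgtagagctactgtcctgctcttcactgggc
Myh3 promoter: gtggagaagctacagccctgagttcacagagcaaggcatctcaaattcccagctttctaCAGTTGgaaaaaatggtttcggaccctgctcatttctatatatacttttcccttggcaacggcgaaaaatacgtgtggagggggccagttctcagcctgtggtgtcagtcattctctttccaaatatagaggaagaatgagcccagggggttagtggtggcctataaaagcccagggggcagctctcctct
Myh8 promoter: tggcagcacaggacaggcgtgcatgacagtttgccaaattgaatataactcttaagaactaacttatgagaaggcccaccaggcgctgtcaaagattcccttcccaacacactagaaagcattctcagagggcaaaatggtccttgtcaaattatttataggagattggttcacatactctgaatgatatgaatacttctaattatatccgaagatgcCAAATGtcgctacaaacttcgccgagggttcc

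Chrng held 3 copies of CANNTG, a number reached by 12.2% of all windows, and 2 of these were CAGCTG, as in 1.26% of windows. Myog held 2, and Myh3 and Myh8 held 1 each, which is the median of all windows. The windows of Pax7 and Myf5 held none. A match describes the letters only, not a bound site. Myod1, Myf6 and Mymk were not matched.

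Total counts of the tumor libraries ran from 31810461 to 54008259, so that 3 counts, the limit that a count of 0 allows, correspond to 0.0555 to 0.0943 CPM, the unit used throughout, in which counts are scaled to a common library total. Trp53 was listed at 20.2 to 60.7 CPM over the tumors. Its count covers the whole gene and the host cells too, so it does not check the deletion. The 2 libraries of line 402230 went against their labels. The library labelled as the cell line held macrophage markers at a summed 837 CPM and endothelial markers at 292 CPM, within the range of the tumors. The library labelled as the parental primary tumor held them at 3.30 and 0.537 CPM, below every tumor, and no counts of the 4 T cell markers. These 2 libraries enter no comparison between groups. Their CPM, and that of the tumors set against them, is of raw library totals, unlike the other levels.

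All 9 genes passed the filter on low counts. Per length of exon, the order of median levels in transplants was Myf6 (22.2 CPM per kb), Myog (8.07), Myod1 (4.81), Mymk (1.81), Myh3 (1.41), Chrng (1.14), Myh8 (0.679), Myf5 (0.181) and Pax7 (0.0432). Neighbors in this order had overlapping ranges in every case. The length is that of all annotated exons together, 11.772 kb for Myh8 and 6.057 kb for Myh3, so the order depends on the annotation. In primary tumors Myf6 was again highest (median 2.47 CPM per kb), followed by Myod1 (0.756) and Myog (0.731), and Myf5 (0.0126) and Pax7 (0.00794) were again lowest. Pax7 and Myf5 rest on few reads. Pax7 had at least 3 counts in 13 of 16 transplants and 14 of 32 primary tumors, and Myf5 in 14 of 16 and 9 of 32. Myod1, Myog, Myf6, Mymk, Myh3, Myh8 and Chrng had at least 3 counts in all 16 transplants.

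**Figure D1:**
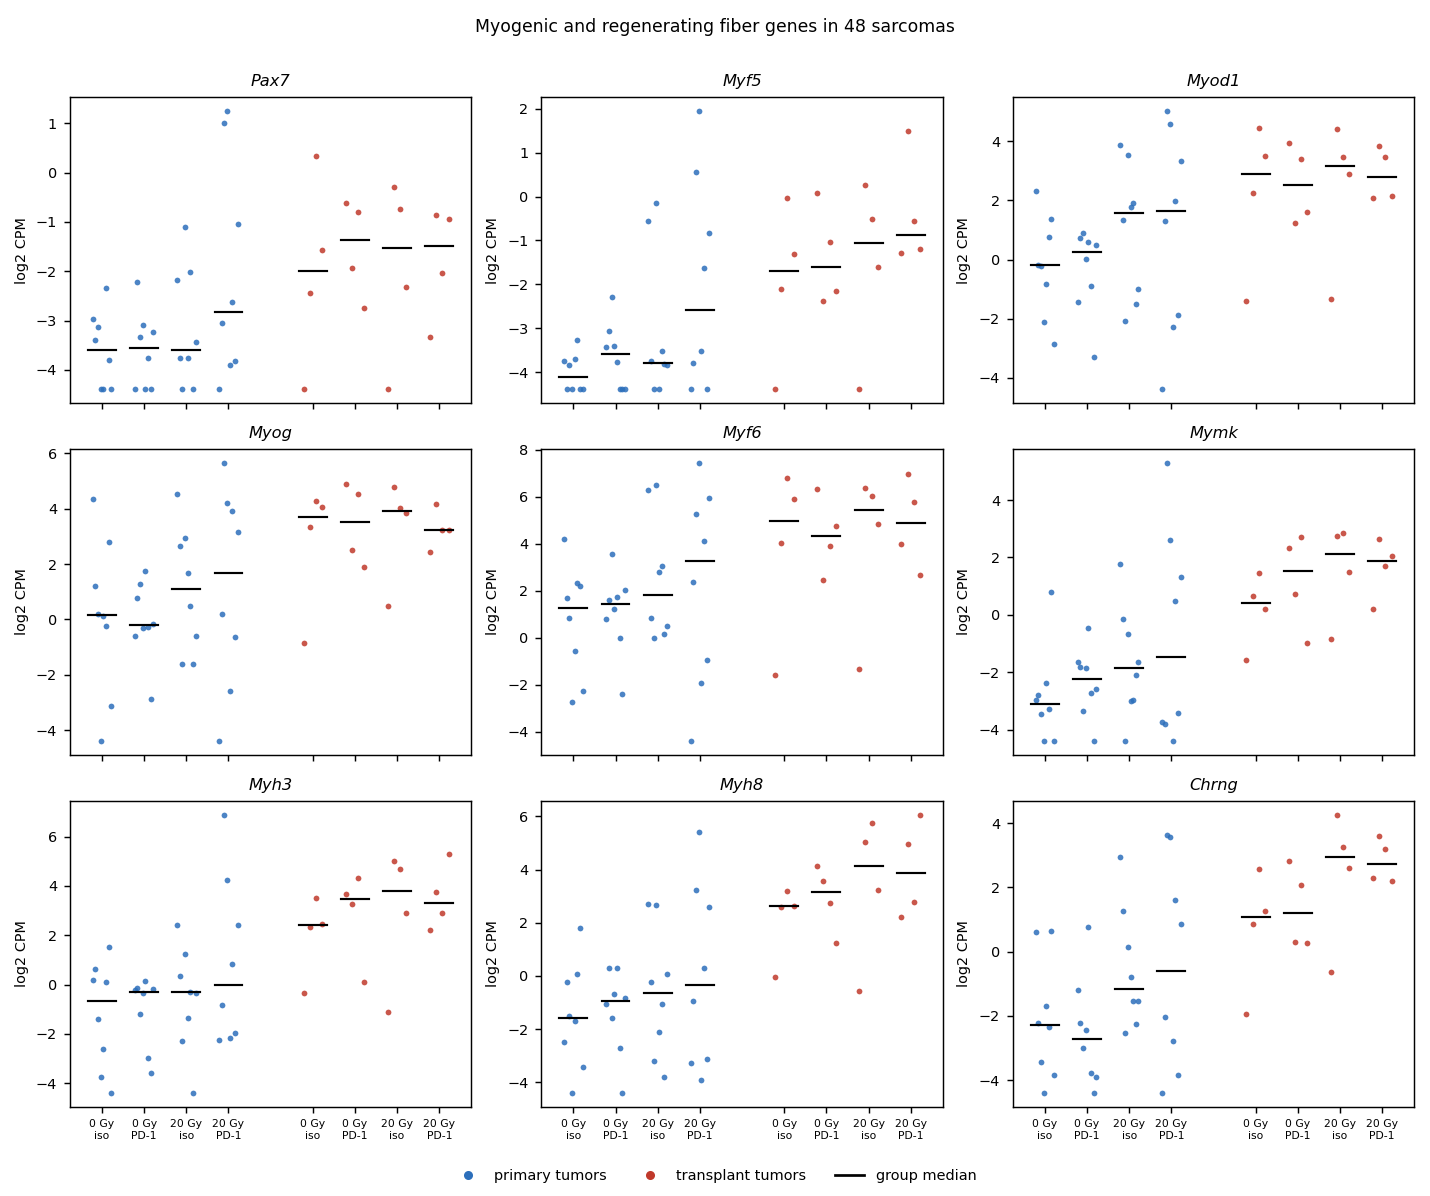
Level of each of the 9 genes in log2 CPM (vertical axis) in the 48 tumors, by treatment (iso, isotype; PD-1, anti-PD-1). Each point is 1 library and black bars are group medians. Medians of the transplants (red) lie above those of the primary tumors (blue) of the same treatment in every panel, while the points of the primary tumors given 20 Gy spread widely.

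The first comparison asked how transplants differed from primary tumors. Over the mean of the 4 treatments, all 9 genes were higher in transplants, with fold changes of 3.02 (Myog) to 8.83 (Myh8) and a median log2 fold change of 2.08. Of all 19327 genes tested, 15.7% were higher in transplants, and their median log2 fold change was -0.00. The largest differences were those of the genes of new fibers, Myh8 (log2 fold change 3.14 ± 0.62 SE, adjusted p = 9.3e-05), Myh3 (2.58 ± 0.60, adjusted p = 0.00074) and Chrng (2.38 ± 0.60, adjusted p = 0.0017). The smallest were those of Myog (1.59 ± 0.59, adjusted p = 0.031), Pax7 (1.65 ± 0.55, adjusted p = 0.017) and Myod1 (1.67 ± 0.54, adjusted p = 0.014). Tests were edgeR's quasi-likelihood test with Benjamini-Hochberg adjustment over all genes tested. Because whole tumors were sequenced, fewer cells of a type and less RNA per cell cannot be told apart. Without untreated transplant replicate 3, Pax7 (adjusted p = 0.078) and Myog (adjusted p = 0.051) did not pass. Myog also did not pass without replicate 1 of the 0 Gy anti-PD-1 transplants (adjusted p = 0.058), replicate 2 of the 20 Gy isotype transplants (0.057) or replicate 2 of the 20 Gy anti-PD-1 transplants (0.051), nor without the filter on low counts (log2 1.58, adjusted p = 0.062).

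Pax7 marks satellite cells. Its level in transplants was 0, 0.137, 1.22 and 0.291 CPM in the untreated libraries (replicates 1 to 4) and 0.601, 0.214, 0.530 and 0.101 CPM after 0 Gy and anti-PD-1. After 20 Gy it was 0, 0.766, 0.548 and 0.152 CPM with isotype and 0.0520, 0.507, 0.195 and 0.470 CPM with anti-PD-1. A single transplant reached 1 CPM, and the 2 transplants without a Pax7 read were replicate 1 of the untreated group and replicate 1 of the 20 Gy isotype group. In primary tumors the lowest, median and highest were 0, 0.0361 and 0.151 CPM untreated, 0, 0.0389 and 0.166 after anti-PD-1, 0, 0.0360 and 0.415 after 20 Gy, and 0, 0.0941 and 2.33 after the combination. The highest Pax7 levels of the series were thus in irradiated primary tumors given anti-PD-1, and the groups overlapped under every treatment.

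Myf5 and Myod1 specify myoblasts. Myf5 in transplants was 0, 0.183, 0.923 and 0.359 CPM untreated, 1.0, 0.143, 0.438 and 0.178 after anti-PD-1, 0, 1.16, 0.658 and 0.279 after 20 Gy, and 0.364, 2.75, 0.633 and 0.392 after the combination. In the 8 untreated primary tumors Myf5 had 0 to 3 counts a library (0 to 0.0564 CPM, median 0.0110). Every untreated transplant but replicate 1, which had no Myf5 read, lay above these. After anti-PD-1 alone, primary tumors reached 0.155 CPM (median 0.0358), after 20 Gy 0.858 (median 0.0250) and after the combination 3.81 (median 0.157). Over the mean of treatments Myf5 was 5.05-fold higher in transplants (log2 2.34 ± 0.60, adjusted p = 0.0021).

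Myod1 was 0.334, 4.74, 21.7 and 11.4 CPM in untreated transplants and 15.3, 2.29, 10.6 and 3.02 CPM after anti-PD-1 alone. It was 0.350, 21.6, 11 and 7.34 CPM after 20 Gy and 4.16, 14.4, 11.1 and 4.36 CPM after the combination. Replicate 1 of both isotype groups was low for Myod1, as for the other 8 genes. Primary tumors ran from 0.0909 to 4.89 CPM untreated (median 0.824), 0.0542 to 1.81 after anti-PD-1 (median 1.17), 0.187 to 14.8 after 20 Gy (median 2.93) and 0 to 32.5 after the combination (median 3.16). The groups did not overlap after anti-PD-1 alone and overlapped under the other treatments.

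Myog drives differentiation, and Myf6 acts late and persists in fibers. Myog was 0.501, 9.94, 19.3 and 16.6 CPM in untreated transplants, against 0 to 20.5 CPM (median 1.07) in untreated primary tumors. After anti-PD-1 alone, transplants were at 29.3, 5.58, 22.8 and 3.65 CPM and primary tumors at 0.0903 to 3.29 (median 0.815), without overlap. With 20 Gy, transplants were at 1.34, 27.2, 16.1 and 14.2 CPM with isotype and 5.38, 18.1, 9.25 and 9.27 CPM with anti-PD-1. Irradiated primary tumors overlapped with these, at 0.280 to 22.8 CPM with isotype (median 2.26) and 0 to 50.3 CPM with anti-PD-1 (median 4.97). Myf6, the most abundant of the 9 per length, was 0.286, 16.4, 112.6 and 60.3 CPM in untreated transplants and 0.104 to 18.3 CPM (median 2.49) in untreated primary tumors. It was 79.7, 5.47, 15.1 and 27.3 CPM in transplants after anti-PD-1, 0.350, 83.4, 64.6 and 28.8 after 20 Gy and 15.8, 123.6, 54 and 6.34 after the combination. These values overlapped with those of the primary tumors, whose highest Myf6 level was 174 CPM, after the combination. Myf6 was 4.04-fold higher in transplants over the mean of treatments (log2 2.02 ± 0.66, adjusted p = 0.015).

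Mymk is needed for myoblast fusion. It was at 0.286, 1.53, 2.68 and 1.10 CPM in untreated transplants and 4.99, 1.61, 6.47 and 0.456 CPM after anti-PD-1. After 20 Gy it was at 0.506, 6.67, 7.15 and 2.79 CPM with isotype and 1.12, 6.16, 3.21 and 4.10 CPM with anti-PD-1. Of the 16 transplants, 13 reached 1 CPM, against 6 of 32 primary tumors. Primary tumors had medians of 0.0683 CPM untreated, 0.175 after anti-PD-1, 0.230 after 20 Gy and 0.697 after the combination, with highest values of 1.69, 0.673, 3.38 and 39.2 CPM. The value of 39.2 came from replicate 3 of the combination group and lay above all transplants. Over the mean of treatments the difference was 4.22-fold (log2 2.08 ± 0.63, adjusted p = 0.0086).

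Myh3 and Myh8, the myosins of new fibers, showed the largest differences between models over the mean of treatments. By limma voom Myh8 (log2 4.31) was again the largest, while Chrng (3.68) and Mymk (3.65) were above Myh3 (3.58). The order of the genes was not tested. Myh3 was 0.740, 4.95, 11.3 and 5.49 CPM in untreated transplants and 0 to 2.82 CPM (median 0.673) in untreated primary tumors. After anti-PD-1 alone it was 12.5, 9.53, 20.2 and 1.01 CPM in transplants and 0.0361 to 1.06 CPM (median 0.771) in primary tumors, a difference that passed on its own (log2 4.17 ± 1.25, adjusted p = 0.031). The groups overlapped only through the lowest transplant. After 20 Gy, transplants were at 0.409, 32.5, 25.9 and 7.50 CPM and primary tumors at 0 to 5.23 (median 0.754). After the combination, transplants were at 4.6, 13.5, 7.38 and 39.6 CPM, and primary tumors at 0.164 to 118.8 (median 1.12). The 118.8 CPM of replicate 3 was the highest Myh3 level of the 48 tumors.

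Myh8 was 0.930, 6.03, 9.10 and 6.14 CPM in untreated transplants, against 0 to 3.43 (median 0.284) in untreated primary tumors. After anti-PD-1 alone it was 17.4, 11.8, 6.59 and 2.31 CPM in transplants and 0 to 1.19 (median 0.474) in primary tumors, and the groups did not overlap (log2 4.15 ± 1.28, adjusted p = 0.037). After 20 Gy, transplants were at 0.623, 32.6, 53.8 and 9.35 CPM, of which all but the first exceeded the highest primary tumor (6.44 CPM). After the combination, transplants were at 4.55, 31.5, 6.89 and 67.2 CPM and primary tumors at 0.0196 to 42.9 (median 0.829).

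Chrng, the fetal receptor subunit, was 0.215, 1.76, 5.85 and 2.38 CPM in untreated transplants and 7.01, 1.2, 4.15 and 1.17 CPM after anti-PD-1. After 20 Gy it was 0.604, 19.2, 9.59 and 6.05 CPM with isotype and 4.89, 12.0, 9.05 and 4.59 CPM with anti-PD-1. In transplants 14 of 16 libraries reached 1 CPM, against 10 of 32 primary tumors. Primary tumors had medians of 0.159 CPM untreated, 0.108 after anti-PD-1, 0.413 after 20 Gy and 0.978 after the combination, with highest values of 1.52, 1.66, 7.63 and 12.5 CPM, so the groups overlapped under each treatment.

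Within single treatments, few of these differences passed. In untreated tumors, 1 of the 9 genes was higher in transplants, Myf5 (log2 4.18 ± 1.35, adjusted p = 0.040), beside 3.88% of all genes. An unadjusted p under 0.05 was reached by 7 of 9, beside 4890 of the 19327 genes tested. The call of Myf5 was lost without transplant replicate 2, 3 or 4 or primary replicate 1, 2, 3, 4, 7 or 8, with adjusted p of 0.054 to 0.18 and log2 fold changes of 3.18 to 4.42. After anti-PD-1 alone, 2 of 9 were higher, Myh3 and Myh8, beside 3.39% of all genes. All 9 had an unadjusted p under 0.05, beside 4124 of the 19327 genes tested. No gene was called without transplant replicate 1 or 3 or primary replicate 3, 6 or 7 of these groups, 1 was called without transplant replicate 2 or primary replicate 1 or 8, and 4 were called without primary replicate 5. That count was also 4 without replicate 4 of the untreated primary tumors or replicate 1 or 5 of the primary tumors given the combination. After 20 Gy and isotype none of the 9 passed, beside 4.87% of all genes called in either direction. An unadjusted p under 0.05 was reached by 4 of 9, beside 3599 of the 19327 genes tested. DESeq2 called 2 (beside 7.5% of all genes) and limma voom 0 (beside 4.69%). A single gene passed there without replicate 1 of those primary tumors or replicate 3 of the primary tumors given the combination. After the combination none passed, beside 6.76% of all genes. An unadjusted p under 0.05 was reached by 0 of 9, beside 4610 of the 19327 genes tested. DESeq2 called 0 (beside 10.7% of all genes) and limma voom 2 (beside 8.25%). There the log2 fold changes ran from -0.99 to 1.88, and 5 of 9 were below 0. Whether the model difference varied between treatments was tested for radiation, as an interaction.

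None of 15 mature fiber genes, which include Acta1, Ckm and Myh4, passed between transplants and primary tumors over the mean of treatments, beside 34.8% of all genes called in either direction, and their median log2 fold change was 0.56. None passed within a treatment either, where the median was 1.94 untreated, 1.78 after anti-PD-1, -0.58 after 20 Gy and -0.87 after the combination. The mean of the list was 7.23 ± 2.31 log2 CPM in the transplants (SD, n = 16). In the primary tumors it was 5.72 ± 2.91 (SD, n = 32), with ranges of 1.96 to 9.67 and -0.19 to 11.64. Summed over the list, transplants held 97.8 to 23852 CPM and primary tumors 18.1 to 94633 CPM, and no gene of the list was at 0 in every library. The lowest transplants for this list were replicate 1 of the untreated and of the 20 Gy isotype group, the same that were low for the 9 genes. With the mean of the list as a covariate in the fit, all 9 genes were still higher in transplants, beside 16.6% of all genes. Their log2 fold changes were then 1.10 (Pax7), 1.75 (Myf5), 1.0 (Myod1), 1.05 (Myog), 1.17 (Myf6), 1.66 (Mymk), 2.24 (Myh3), 3.00 (Myh8) and 1.72 (Chrng), with adjusted p from 1.5e-07 (Myh8) to 0.039 (Myog). Myh8 and Myh3 changed least with the covariate.

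**Figure D2:**
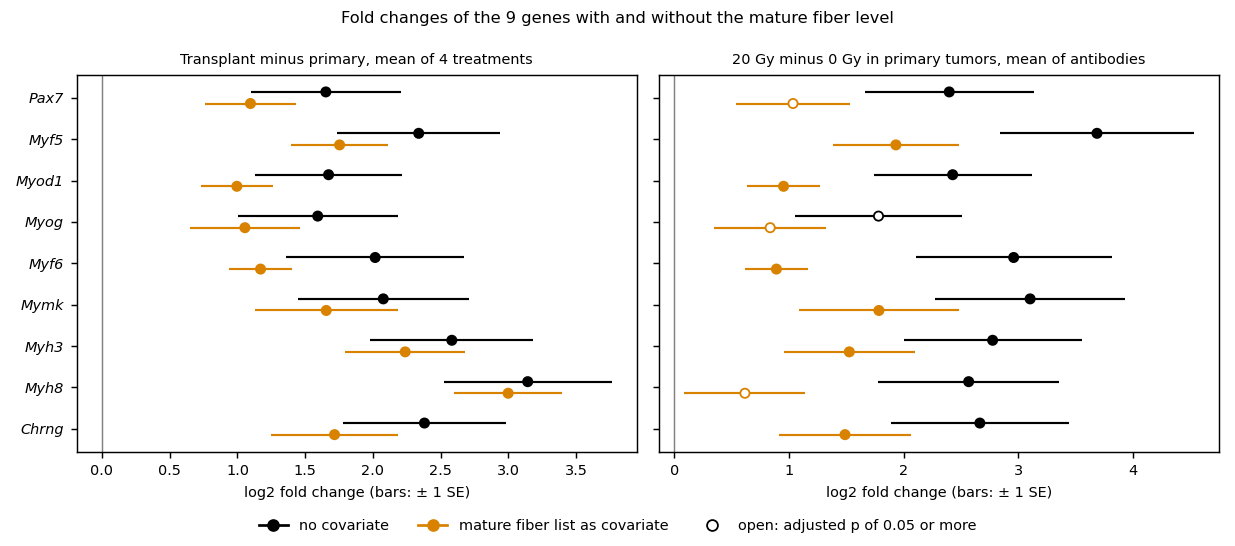
Log2 fold change (horizontal axis, bars ± 1 SE) of the 9 genes for transplants against primary tumors (left) and for 20 against 0 Gy in primary tumors (right), without (black) and with (orange) the mature fiber level as covariate. Filled points passed at an adjusted p under 0.05, which all 9 did on the left in both fits, against 8 and 6 on the right.

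Across tumors, the 9 genes followed the mature fiber level to unequal degrees. Over the 48 tumors Pearson's r between log2 CPM and the mean of the list ran from 0.651 (Mymk) to 0.945 (Myf6) and Spearman's rho from 0.645 (Mymk) to 0.933 (Myf6), each with a permutation p of 1e-05, the smallest that 100000 permutations can give, before and after adjustment over the 9 genes. Leaving out the 2 tumors farthest from the median gave r of 0.619 to 0.939. Within the 32 primary tumors rho ran from 0.581 (Mymk, adjusted permutation p = 0.0006) to 0.95 (Myf6). Within the 16 transplants rho was 0.876 for Myf6 (adjusted permutation p = 0.00018), 0.844 for Myod1 (0.00027) and 0.796 for Myf5 (0.0012). For Mymk (rho 0.497, adjusted permutation p = 0.067), Myh8 (0.479, 0.069) and Myh3 (0.441, 0.089) the relation did not pass there. The 2 low transplants stood apart from the other 14, and without them r was 0.842 for Myf6 but 0.334 for Mymk, 0.276 for Myh8 and 0.188 for Myh3, so the relation of these 3 genes in transplants rests on those libraries. All of these values share the library's composition, and genes and list come from the same libraries.

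**Figure D3:**
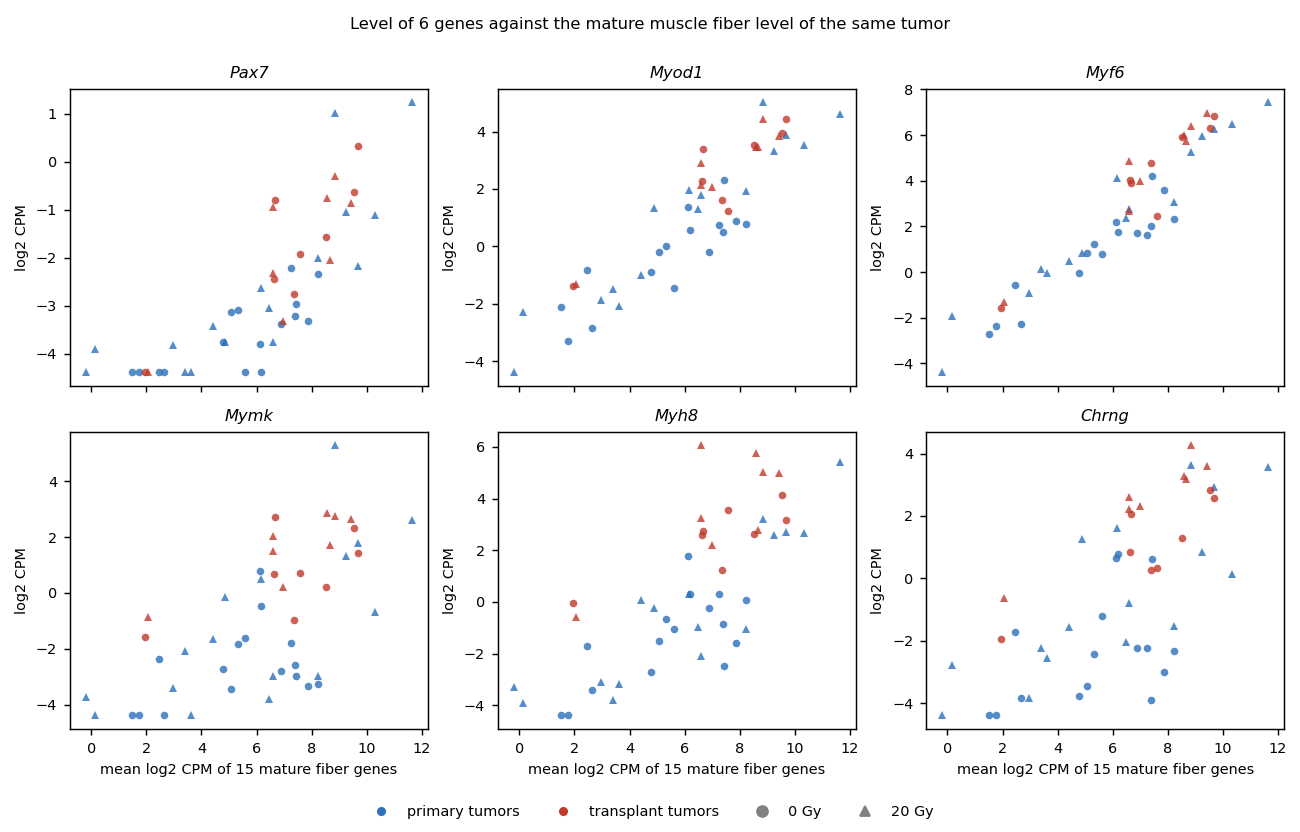
Level of 6 of the genes in log2 CPM (vertical axis) against the mean log2 CPM of 15 mature fiber genes (horizontal axis) in the 48 tumors, 1 point a library (circles 0 Gy, triangles 20 Gy). Myf6 follows the mature fiber level closely in both models (rho 0.933), while most transplants (red) lie above primary tumors (blue) of a like mature fiber level for Myh8.

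Among themselves the 9 genes rose and fell together. Spearman's rho between pairs of them ran from 0.727 (Pax7 and Mymk) to 0.963 (Myod1 and Myf6) over 48 tumors, with a median of 0.862. It ran from 0.511 (Pax7 and Mymk) to 0.958 (Myod1 and Myf6) in primary tumors and from 0.465 (Myf6 and Myh3) to 0.926 (Myh3 and Myh8) in transplants. These values are a description, since all pairs come from the same libraries.

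The share of myosin heavy chain counts that came from Myh3 and Myh8, out of Myh1, Myh2, Myh3, Myh4, Myh7 and Myh8, relates new to mature fiber RNA within a library. Its median was 1.52% in transplants (range 0.137 to 15.8%) and 0.196% in primary tumors (0.0135 to 4.72%). By treatment, transplants had medians of 0.967% untreated, 1.08% after anti-PD-1, 2.74% after 20 Gy and 1.19% after the combination. Primary tumors had medians of 0.115%, 0.150%, 0.143% and 0.460%. The ranges overlapped under each treatment except 20 Gy with isotype, where transplants were at 1.55 to 4.36% and primary tumors at 0.0135 to 1.37%. Most myosin heavy chain counts were thus of the adult forms in every tumor.

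**Figure D4:**
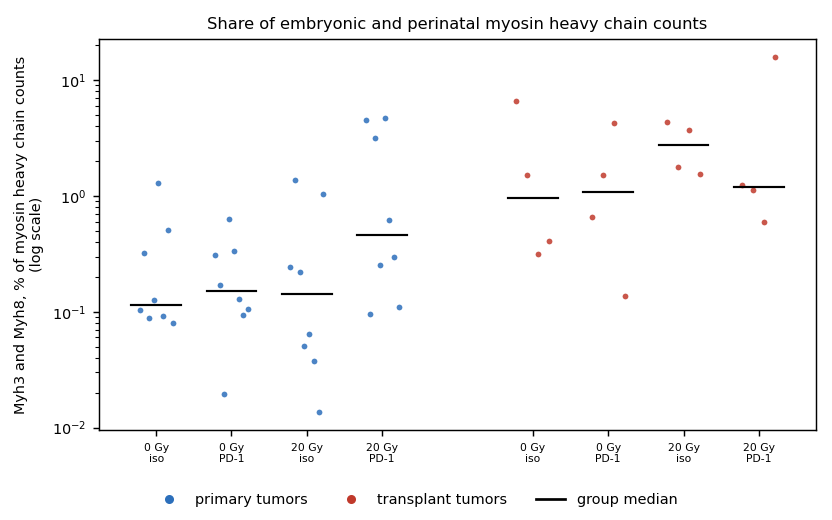
Myh3 and Myh8 counts as a percentage of the counts of 6 myosin heavy chain genes (vertical axis, log scale) in the 48 tumors by treatment, with group medians (bars). The medians were 1.52% in transplants (red) and 0.196% in primary tumors (blue).

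The next comparison asked what 20 Gy changed within each model. In primary tumors, over the mean of both antibodies, 8 of the 9 genes were higher after 20 Gy, beside 16.8% of all genes, with a median log2 fold change of 2.66. Myf5 rose most (log2 3.69 ± 0.85, adjusted p = 0.00089), followed by Mymk (3.10 ± 0.83, adjusted p = 0.0040), Myf6 (2.96 ± 0.85, adjusted p = 0.0073), Myh3 (2.78 ± 0.78, adjusted p = 0.0058) and Chrng (2.66 ± 0.78, adjusted p = 0.0080). Myh8 (2.57 ± 0.79, adjusted p = 0.012), Myod1 (2.43 ± 0.69, adjusted p = 0.0066) and Pax7 (2.40 ± 0.74, adjusted p = 0.012) rose by similar amounts, and Myog had a log2 fold change of 1.78 ± 0.73 (adjusted p = 0.058). The rise lay in the mean and less in the median: from 16 unirradiated to 16 irradiated primary tumors, the median went from 0.0239 to 0.0328 CPM for Myf5, from 0.0368 to 0.0597 for Pax7, from 0.0997 to 0.230 for Mymk and from 0.903 to 2.93 for Myod1. The median of Myh3 was 0.771 CPM without and 0.754 CPM with radiation, and its highest values were 2.82 and 118.8 CPM. Limma voom, which works on log values, called none of the 9 (log2 fold changes 1.10 to 2.14, adjusted p = 0.11 to 0.49), while it called 26.7% of all genes in either direction.

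Levels in irradiated primary tumors were uneven. Replicates 3 and 4 of the 20 Gy anti-PD-1 group held Myf6 at 38.6 and 174 CPM, Myh3 at 118.8 and 18.8, Mymk at 39.2 and 6.04, Myod1 at 32.5 and 24.2 and Pax7 at 1.97 and 2.33. Replicates 1, 5 and 7 of the same group held Myf6 at 0, 0.215 and 0.477 CPM and no more than 0.227 CPM of Myod1. Without replicate 3, Myh3 did not pass (log2 1.63, adjusted p = 0.070) and Mymk fell to log2 2.02 (adjusted p = 0.039). Without replicate 4, Myh8 did not pass (1.76, adjusted p = 0.071) and Myf5 was at 3.09. Other libraries moved the fold of a called gene by over 1.5 times with its call kept. These were replicate 1 of the 20 Gy isotype group (Mymk 2.49, Chrng 2.07), replicate 7 of the untreated group (Mymk 4.16) and replicate 5 of the 0 Gy anti-PD-1 group (Chrng 3.35).

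The mature fiber genes rose in the same comparison, 12 of 15 of them, with a median log2 fold change of 2.36. Their summed level ran from 75.7 to 9003 CPM in unirradiated and from 18.1 to 94633 CPM in irradiated primary tumors. On the log2 scale the mean of the list was 5.41 ± 2.22 without and 6.03 ± 3.52 with 20 Gy (SD, n = 16 each), with medians of 5.86 and 6.31. The 4 with the largest change lost calls under alternatives other than leaving out 1 tumor. Mylpf and Tnnc2 did so in 1 and Ckm in 2, while Pvalb did so in 2 and reversed in 1. With the mature fiber level as covariate, 6 of the 9 genes were higher after 20 Gy, beside 14.6% of all genes: Myf5 (log2 1.93), Mymk (1.78), Myh3 (1.53), Chrng (1.49), Myod1 (0.95) and Myf6 (0.89). Pax7 (1.03, adjusted p = 0.11), Myog (0.84, adjusted p = 0.20) and Myh8 (0.62, adjusted p = 0.41) did not pass.

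With isotype alone, none of the 9 passed between 20 and 0 Gy in primary tumors, beside 18.3% of all genes called. There 2 of 9 had an unadjusted p under 0.05, beside 6185 of the 19327 genes tested, and log2 fold changes ran from 0.37 (Myog) to 3.29 (Myf5). DESeq2 called 1 (beside 20.3% of all genes) and limma voom 0 (beside 16.8%). A single gene passed without untreated replicate 7, without replicate 2 or 8 of the 20 Gy isotype group, or without replicate 4 of the combination group. The combination against untreated primary tumors gave 5 of 9 higher, beside 11.4% of all genes. This comparison shares its tumors with the radiation comparisons in primary tumors, so they are not independent. These were Myf5 (log2 5.20 ± 1.25, adjusted p = 0.0030), Mymk (4.53 ± 1.23, adjusted p = 0.0084), Myh3 (4.39 ± 1.17, adjusted p = 0.0069), Pax7 (3.59 ± 1.03, adjusted p = 0.012) and Myh8 (3.31 ± 1.14, adjusted p = 0.036). Without combination replicate 3 the count was 2, and Mymk (log2 2.41, adjusted p = 0.12), Myh3 (2.15, 0.14) and Myh8 (3.25, 0.054) did not pass. Without replicate 4 the count was 3, and Pax7 (2.89, adjusted p = 0.051) and Myh8 (1.70, 0.31) did not pass. Myf5 fell to 4.01 there with its call kept (adjusted p = 0.020). Without combination replicate 1, 5 or 7, the libraries with the least muscle RNA, the count was 8. Leaving out untreated replicate 7 raised Mymk to 6.64 and Myh8 to 4.31, and leaving out untreated replicate 6 raised Pax7 to 4.2 and Myf5 to 5.83. Myh8 also lost its call without untreated replicate 1, 2, 3, 4, 5 or 8 (adjusted p = 0.052 to 0.067). Limma voom called 0 of the 9 (beside 14.7% of all genes in either direction), a fit of these 2 groups alone 0 (beside 8.45%) and DESeq2 8 (beside 22.4%).

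In transplants, none of the 9 genes passed after 20 Gy, with isotype (beside 1.92% of all genes called) or over the mean of both antibodies (beside 7.23%), nor after the combination (beside 4.41%). None had an unadjusted p under 0.05 in these 3 comparisons, beside 2335, 3768 and 3238 of the 19327 genes tested. DESeq2 called 0 (beside 3.1%, 9.31% and 6.27% of all genes), as did limma voom (beside 2.37%, 7.96% and 4.83%). Over the mean of both antibodies, log2 fold changes ran from -0.21 to 1.82, and the highest were those of Myh8 and Chrng. Medians of the 8 unirradiated and 8 irradiated transplants were 6.37 and 20.4 CPM for Myh8, 2.07 and 7.55 CPM for Chrng, and 13.3 and 11.7 CPM for Myog. The difference between the models in the effect of radiation was tested as an interaction. None of the 9 passed, beside 0.0259% of all genes. An unadjusted p under 0.05 was reached by 3 (Pax7, Myf5 and Myod1), beside 1652 of the 19327 genes tested. The interaction was below 0 for all 9, from -2.82 (Myf5, ± 1.25 SE) to -0.74 (Myh8, ± 1.27), where below 0 means a smaller rise in transplants. DESeq2 and limma voom called 0 here too, beside 0.357% and 0.0362% of all genes.

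Anti-PD-1 against isotype, over the mean of both doses, changed none of the 9 genes past the threshold in primary tumors (beside 0.0155% of all genes) or in transplants (beside 0% of all genes). In primary tumors 1 of 9 had an unadjusted p under 0.05, beside 1331 of the 19327 genes tested, and log2 fold changes ran from -0.25 to 1.62. In transplants none did, beside 383 of all genes, and log2 fold changes ran from -0.27 to 0.63. DESeq2 called 0 of the 9 in both (beside 0.0724% of all genes in primary tumors and 0.00517% in transplants), as did limma voom (beside 0% in both).

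**Figure D5:**
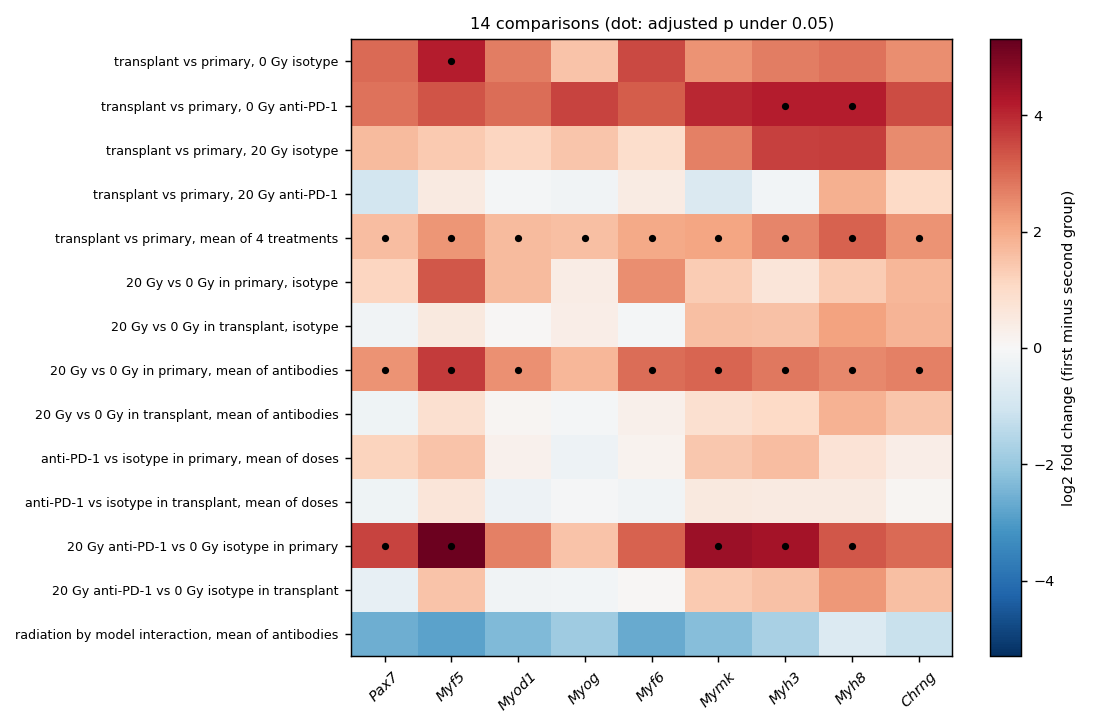
Log2 fold change (color) of the 9 genes (columns) in the 14 comparisons (rows), where a dot marks an adjusted p under 0.05. All 9 are marked for transplants against primary tumors over the mean of treatments, 8 for 20 Gy in primary tumors over the mean of antibodies and 5 for the combination in primary tumors.

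Related genes were read from 5 further lists. Of all genes, 15.7% were higher and 19.1% lower in transplants over the mean of treatments, and after 20 Gy in primary tumors 16.8% were higher and 14.2% lower. Of 8 tested genes of satellite cells and myoblasts, 5 were lower and 1 was higher in transplants than in primary tumors over the mean of treatments. The lower ones included Chodl (log2 -2.48), the calcitonin receptor Calcr (-2.12), which quiescent satellite cells express, and the growth factor signaling inhibitor Spry1 (-1.55). The higher one was Cdh15 (1.53), the M-cadherin of satellite cells and myoblasts. Spry1 is also expressed by other cells of a sarcoma, and the part of those cells was not tested. After 20 Gy in primary tumors, 2 were higher, among them Cdh15 (1.87), and 3 lower (Chodl -2.28, the Notch target Heyl -1.27, Spry1 -1.24). Under alternatives other than leaving out 1 tumor, Cdh15 lost this call in 1 and the 3 lower genes in 0.

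Among 11 cofactors and targets of the myogenic factors, Mymx, the myomixer that acts with Mymk in fusion, was higher in transplants (log2 2.80 ± 0.59, adjusted p = 0.00022), as was the intermediate filament gene Des (1.63, adjusted p = 0.034). The call of Des was lost in 5 of 48 fits without 1 tumor and in 1 other alternative. The cell cycle inhibitor gene Cdkn1c was lower (-2.33). Mymx (3.48), the caveolin gene Cav3 (2.60) and Des (2.41) rose after 20 Gy in primary tumors, and Six4, a homeobox factor that acts on myogenic genes, fell (-0.53). Under other alternatives, Mymx and Cav3 lost this call in 1 and Des in 2, and Six4 in 0. Of 7 inhibitors of myogenic factors, Twist1 was higher in transplants (0.42) and Id1 (-0.51) and Id3 (-0.36, adjusted p = 0.045) lower. The call of Id3 was lost in 17 of the 48 fits that left out 1 tumor and in 3 of 5 other alternatives. After 20 Gy in primary tumors 2 passed narrowly, Mstn, the myostatin gene (1.87, adjusted p = 0.0498), and Hes1 (-0.48, adjusted p = 0.043). Mstn lost its call in 36 of those 48 fits and 4 of 6 other alternatives, and Hes1 in 20 and 3.

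Among 7 other genes of the acetylcholine receptor and its synapse, Chrnd (log2 2.22), whose subunit is part of the same receptor as Chrng, and Colq (1.11), which anchors acetylcholinesterase, were higher in transplants and none was lower. Colq lost its call in 14 of 48 fits without 1 tumor and 2 of 5 other alternatives. After 20 Gy in primary tumors 4 rose: Chrne (2.70), the adult subunit that replaces Chrng, Chrnd (2.63), and the synapse organizers Dok7 (1.60, adjusted p = 0.033) and Musk (1.35, adjusted p = 0.044). Musk lost its call in 15 of 48 fits without 1 tumor and Dok7 in 4, and both in 4 of 6 other alternatives. Chrne and Chrnd lost theirs in 1 of these 6. Of 8 other genes of fetal and regenerating fibers, Tnnt2 (1.77) and Myl4 (1.40) were higher in transplants, and Actc1 (3.74), Tnnt2 (2.53) and Myl4 (1.79) rose after 20 Gy in primary tumors. The 20 Gy call was lost in 2 of 6 other alternatives for Actc1 and in 1 for Tnnt2 and Myl4. In the 2 lists none was lower.

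Markers of other cell types were read as ranges of summed CPM, which overlapped between the models and were not tested. Those of macrophages, endothelium, Schwann cells and adipose tissue are not compared between the models here. Summed smooth muscle markers (5 genes) ran from 33.9 to 200.0 CPM in transplants and from 62.6 to 1551 CPM in primary tumors, T cell markers (4 genes) from 30.6 to 148 and from 3.66 to 175 CPM, and fibroblast and matrix markers (5 genes) from 3356 to 16330 and from 5076 to 47078 CPM. Their part in the differences of the 9 genes was not tested.

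For each of the 9, the 3 genes with the most similar pattern over the 48 tumors were looked for by Spearman's rho among 13924 genes. Chrng was most like Chrnd (rho 0.949), Mymk most like Myl4 (0.918) and Myh8 most like Tnnt2 (0.896), and Myh3 was most like the calsequestrin gene Casq2 (0.906). Pax7 was most like Cav3 (0.923), Myog like Mybph (0.929), and both Myod1 (0.964) and Myf6 (0.984) were most like Des. The 27 places held 16 different genes, none of them in the mature fiber list. When the search was run over the 32 primary tumors alone, 9 of the 27 were found again.

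In the library labelled as the cell line, Myf6 had 55 counts (exact 95% Poisson interval 41.4 to 71.6), Myog 29 (19.4 to 41.6), Myh8 12, Myh3 8, Myod1 7, Chrng 6, Myf5 4, Mymk 3 and Pax7 0, in 41226531 counts. Its Myf6 level of 1.33 CPM exceeded that of 12 of the 48 tumors, and it held the mature fiber gene Acta1 at 63.3 CPM. In the library labelled as the parental primary tumor, Myf6 had 2 counts (0.242 to 7.22), Myh8 had 1 and the other 7 genes had 0 in 48457411 counts, and Acta1 was at 0.433 CPM, below all 48 tumors. With 1 library each there is no replicate, and the intervals cover counting error only.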

How the data were processed

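Whole tumors were profiled by bulk RNA sequencing. According to the labels and the methods, the authors used oligo-dT capture and a stranded kit, Trimmomatic 0.36 for trimming, STAR for alignment to mm10, and GENCODE M17 for counting per gene. The strand setting is not given in the sources used here. The deposited values are raw counts, not normalized or pooled. Oligo-dT capture leaves out RNA without a poly(A) tail. Identifiers were matched to symbols of GENCODE M21 with the version ignored (37408 of 37469). The 2 line libraries carried single-index barcodes and the tumors dual-index barcodes.

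Groups came from the labels, with replicates numbered in accession order. The 48 tumors in 8 groups entered 1 edgeR 4.0.16 quasi-likelihood fit (R 4.3.3, robust, filterByExpr, TMM scaling, no covariate), 19327 genes were tested, and two-sided p-values received Benjamini-Hochberg adjustment, with calls at 0.05. Levels are CPM of TMM-scaled totals, and log2 CPM used a prior count of 2. Over 136 pairs of libraries within groups none was identical, and chi-square per degree of freedom was at least 85.6. Counts per gene limit the precision: intervals and floors cover counting error only. The fit was tested on counts simulated from its own model, which does not test how single extreme libraries affect it. Alternatives were DESeq2 1.42.0, its size factors, limma 3.58.1 voom, no filter, fits of the compared groups, the mature fiber mean or Acta1 as covariate or reference, another prior count (0.5) and leaving out each tumor.

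The 9 genes, the lists and the tests were chosen with earlier results of these data known. By rule, all 9 genes were tested in every comparison, and of each list the called genes were named, up to 4 with the largest change. Where few or none of the 9 were called, the text gives the others as counts or ranges and does not name each. Irradiated libraries singled out among primary tumors were chosen after their values were seen.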

Additional observations from a re-analysis of the deposited data

Results flagged for a closer look

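Of 72 combinations of a gene and a group, 1 held a library far from the others of its group: Mymk in untreated primary tumors, where replicate 7 was at 0.80 log2 CPM and the next library at -2.38 (gap 0.613 of the group's range, above the critical value of 0.526 for 8 libraries). Chance flags about 1 in 20 such groups. Without this library the log2 fold change of Mymk after 20 Gy in primary tumors was 4.16 in place of 3.10. The same tumor had the highest Myh3 (2.82 CPM), Myh8 (3.43 CPM) and Chrng (1.52 CPM) of its group, and its mature fiber level of 6.13 log2 CPM was within the range of the group.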

How the results depend on the processing

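Of 2411 values of the 9 genes under alternatives, 2266 kept their direction and side of the threshold, 66 lost significance, 79 gained it and 0 reversed. They cover only the 5 comparisons in which any of the 9 was called, and most come from fits without 1 tumor. Under the other alternatives, 41 values stayed, 10 lost significance and 1 gained it for 20 Gy in primary tumors over the mean of antibodies. For the combination in primary tumors these were 35, 10 and 5. For transplants against primary tumors they were 44, 1 and 0 over the mean of treatments, 48, 2 and 2 untreated, and 40, 3 and 9 after anti-PD-1. The number of genes called for untreated transplants against primary tumors was 1 in the report, 0 without the filter, by limma voom and in the fit of those groups alone, and 2 by DESeq2 and with the covariate (leave-one-out range 0 to 1). After anti-PD-1 alone it was 2, then 0 without the filter, 4 by DESeq2 and with the covariate, and 6 in the fit of those groups (0 to 4). After 20 Gy it was 0, then 2 by DESeq2 and 3 with the covariate (0 to 1), and after the combination 0, then 2 by limma voom and 1 with the covariate. Over the mean of treatments it was 9, then 8 without the filter, where Myog had adjusted p = 0.062 (7 to 9). For 20 Gy in primary tumors with isotype it was 0, then 1 by DESeq2 (0 to 1). Over the mean of antibodies it was 8, then 0 by limma voom (7 to 9). For the combination in primary tumors it was 5, then 8 by DESeq2, 0 by limma voom and in the fit of those groups, and 3 with the covariate (2 to 8). Pvalb, a mature fiber gene, reversed after 20 Gy in primary tumors over the mean of antibodies, from log2 2.61 to -0.031 by limma voom. The cause of these changes was not tested. The mean of treatments and the interaction use all 8 groups, so the fit of the compared groups gives no other value. No paired analysis was possible because the labels give no replicate numbers that the groups share. The depth leaves Pax7 and Myf5 near the limit of 3 counts in most primary tumors.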
